A study of Mus musculus with 12 samples.

Results

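The 42 genes described here act in DNA replication and mitosis, and they were chosen by gene symbol as known cell cycle genes, out of 23238 symbols in the count tables. They were measured in RNA of mouse alveolar type II (ATII) cells, the surfactant-secreting cells of the alveolus, isolated by flow cytometric sorting for the surface proteins CD74 and EpCAM. The study asked how deletion of p300, a histone acetyltransferase encoded by Ep300, alters the response of these cells to bleomycin, which causes DNA strand breaks and alveolar injury. There were 4 groups of 3 mice, with 1 library per mouse. Con mice carried the floxed alleles (LoxP sites around exon 9 of Ep300) and received PBS into the trachea, and the sample titles call them wild type. BLM mice had the same genotype and received 4 mg/kg bleomycin by the same route. KO mice carried the deletion, induced in ATII cells through the surfactant protein C promoter (Spc-CreERT2), and received PBS, whereas KOBLM mice carried it and received the same dose of bleomycin. The protocol text gives all groups an age of 8 weeks and 10 mg/kg tamoxifen before bleomycin. The paper's sorting methods instead give an age of 8 to 10 weeks and name a mouse strain, not floxed mice, beside the knockout. For its PCR check of isolated ATII cells, the paper describes floxed mice given vehicle or tamoxifen. Whether Con and BLM mice received tamoxifen is therefore unclear, and the part of tamoxifen in the differences between genotypes was not tested.

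Dividing cells copy their DNA once per cycle, which starts with the loading of the MCM helicase onto origins by Cdc6 and Cdt1 and its activation with the help of GINS. Cyclins then drive the cyclin-dependent kinases through DNA synthesis and into mitosis, where Aurora and Polo-like kinases, the spindle checkpoint and kinesin motors separate the chromosomes. In the adult lung most ATII cells are quiescent, and they are known to re-enter the cycle after alveolar injury, when they act as progenitors of the epithelium.

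The libraries held 7005005 to 11153154 counts (median 9186234), and levels are given as CPM, the counts of a gene scaled to the library total. The detection floor was set at 3 counts, or 0.269 to 0.428 CPM. The floor covers counting error only. The labelled cell type had weak markers. Sftpc, the defining surfactant gene of ATII cells, ranged from 0.55 to 612 CPM (median 74.0), and the lineage factor gene Nkx2-1 was at 0 in 7 libraries. Of the genes of the sorted proteins, Epcam ranged from 2.75 to 329 CPM and Cd74 from 460 to 2247 CPM. Together 15 ATII markers summed to 652 CPM (KO 2, with 460 CPM from Cd74) to 3851 CPM. Macrophage markers (17 genes) summed to more than that in 11 libraries, at 8470 to 43686 CPM, and to 1024 CPM in BLM 3. The part of other cells in the levels below was not tested. BLM 3 stood apart further. It held counts for 6847 genes, the fewest, and 24 pluripotency genes together reached 4655 CPM there, compared with 1.32 to 30.2 CPM elsewhere. In the library labelled KOBLM 2, erythroid marker genes reached 9522 CPM, compared with 11.6 to 1071 CPM elsewhere. Ep300 was at 51.0 to 143 CPM in Con and at 103 to 154 CPM in the libraries labelled KO. The kit reads the 3′ end, downstream of exon 9, so this level does not check the deletion and the genotypes of these libraries rest on the labels. The paper reports its own checks of the deletion, by quantitative PCR in isolated ATII cells and by p300 staining in lungs.

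All 42 genes passed the low-count filter. Their mean level over the 12 libraries ranged from 4.77 CPM (Ccne1, the G1/S cyclin E1) to 237 CPM (Top2a, the topoisomerase that untangles replicated DNA). Together they took 1683, 1762 and 1670 CPM in the Con libraries and 994, 1458 and 7874 CPM in the BLM libraries. They took 1577, 1241 and 2042 CPM in those labelled KO and 1083, 709 and 703 CPM in those labelled KOBLM. The 3 KOBLM libraries therefore lay below all KO and Con libraries, and BLM 3 lay far above every other library.

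The group means were 1705 ± 49.6 CPM in Con, 3442 ± 3845 CPM in BLM, 1620 ± 402 CPM in KO and 832 ± 217 CPM in KOBLM (SD, n = 3 each). BLM was 2.02 times Con with all libraries and 0.719 times Con without BLM 3, so that the direction of this ratio rested on that library. KOBLM was 0.513 times KO. A smaller summed level in bulk RNA can come from fewer cycling cells or from less of each RNA per cell, and these cannot be told apart here.

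**Figure D1:**
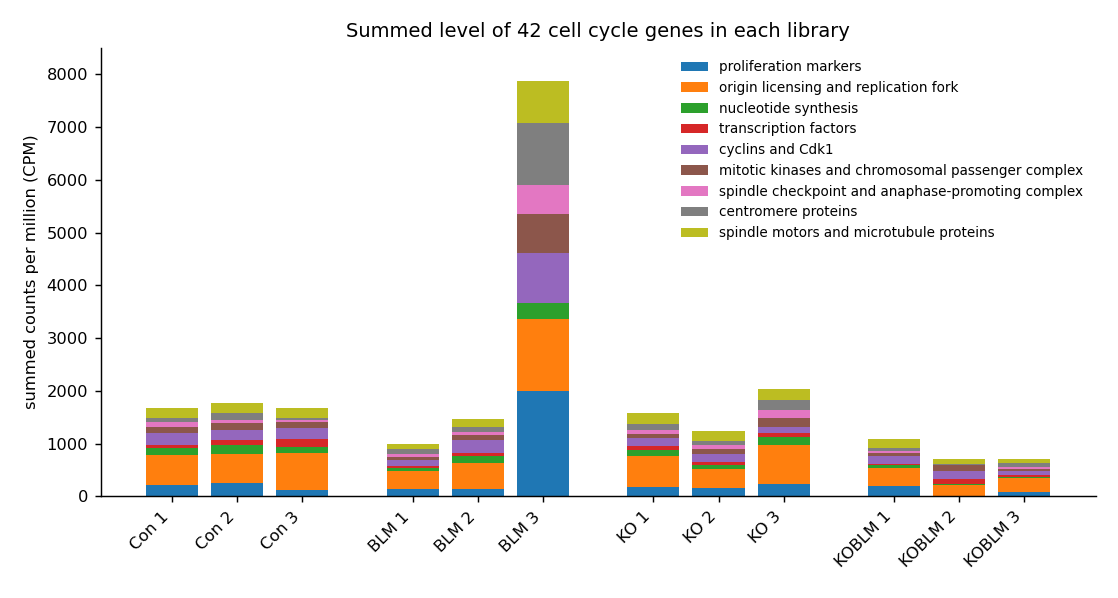
Summed level of the 42 cell cycle genes in each of the 12 libraries, in CPM, with the bar divided by the role of the genes. BLM 3 reaches 7874 CPM, the other libraries lie between 703 and 2042 CPM, and the 3 KOBLM bars are below the 3 KO bars.

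BLM 3 held the highest level of 31 of the 42 genes, whereas 19.4% of all tested genes were highest there. For 19 genes its level was more than 2 times that of any other library, and for 7 more than 5 times. The DNA synthesis gene Tyms, the transcription factors E2f1 and Foxm1, the kinase Aurkb and the checkpoint gene Bub1b had 0 of 11153154 counts in BLM 3, which allows up to 0.269 CPM. Of all tested genes, 50.9% were at 0 in that library. KOBLM 2 lacked the most of the 42 genes, with 19 at 0, beside 33.0% of all tested genes at 0 in it. KO 3 had 7 of the 42 at 0, beside 34.6% of all tested genes, a larger share than in KOBLM 2. It held counts for 8790 genes, fewer than the 9018 of KOBLM 2, and the part of this in the KO levels was not tested. There were 16 genes above the floor in all libraries and 25 at 0 in at least 1.

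**Figure D2:**
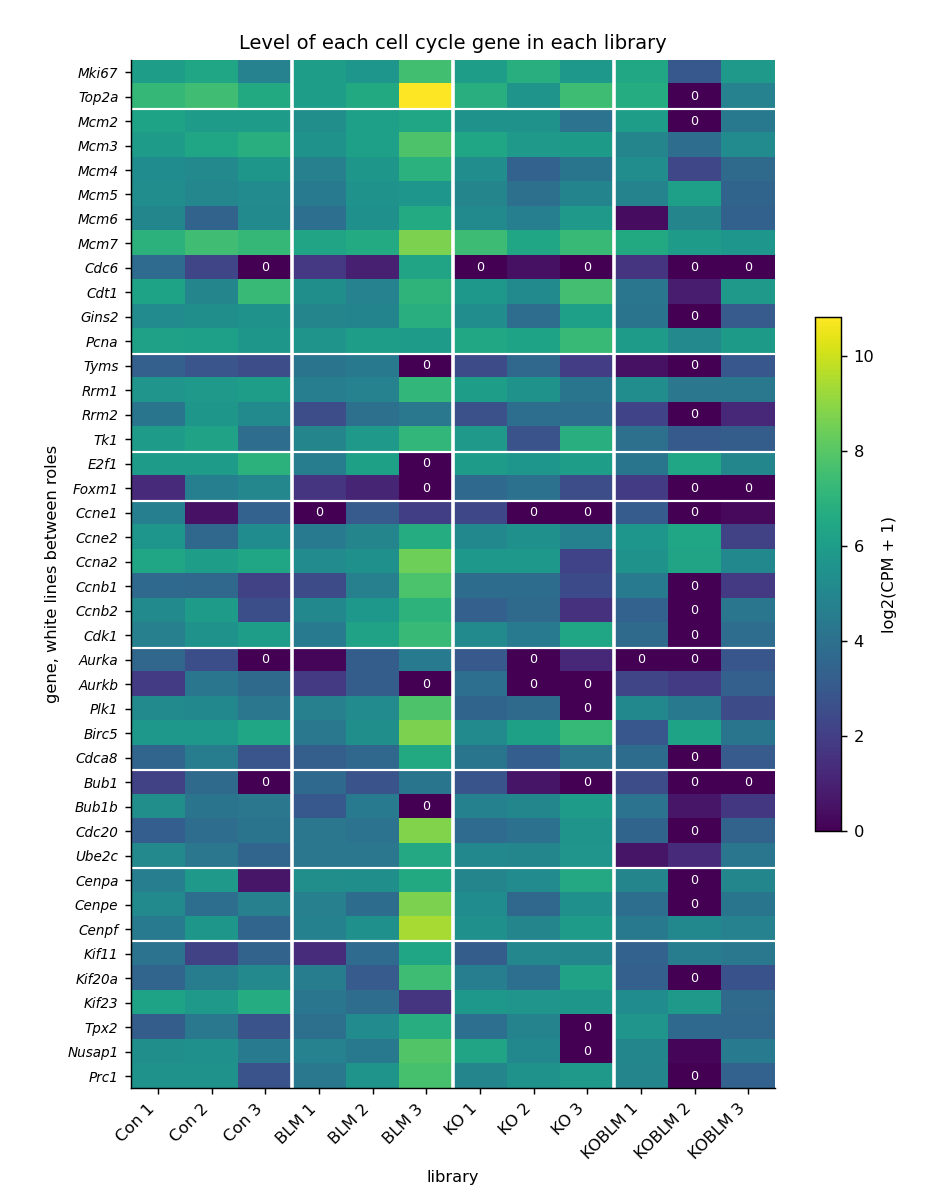
Level of each of the 42 genes (rows, ordered by role) in each library (columns), as log2(CPM + 1), with 0 written where a library had no count. The BLM 3 column is brightest for most genes, and KOBLM 2 has 19 genes at 0.

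Genes of this kind are known to share short promoter elements, so the promoters of the 42 genes are shown. These genes were chosen as known cell cycle genes, and the part of such elements in their levels was not tested. Late cell cycle genes carry the cell cycle homology region (CHR, TTTGAA) and CCAAT boxes bound by NF-Y, and replication genes carry E2F sites (TTTGGCGC or TTTCGCGC). RefSeq promoter windows (GRCm38.p6, 250 bases before to 50 after each start) were found for 34 of the 42 genes and searched on both strands. A single window was used for each of these genes, so other start sites are not covered. TTTGAA was in 16 of these 34 windows and in 17.9% of all 32851 windows. CCAAT was in 26 of the 34 and in 37.4% of all, and an E2F site was in 6 of the 34 (Mcm3, Mcm5, Mcm6, Mcm7, Cdt1 and Cdk1) and in 0.813% of all. A match describes the letters and is not a measured binding site. The stretches below run 5′ to 3′ from 125 bases before to 25 after the start of 6 of the genes whose levels follow, with these motifs, on either strand, in capitals. They lie at chr11:99024165-99024314 (minus strand, Top2a), chr7:135716355-135716504 (minus strand, Mki67), chr5:138171859-138172008 (minus strand, Mcm7), chr1:189688062-189688211 (minus strand, Cenpf), chr11:117849112-117849261 (plus strand, Birc5) and chr2:154569402-154569551 (minus strand, E2f1). Top2a, Cenpf and Mki67 show CHR elements, Mcm7 shows an E2F site just after the start used, and Birc5 and E2f1 hold none of these letters here. For Mcm7 and E2f1 the start used lies inside the annotated gene.
Top2a: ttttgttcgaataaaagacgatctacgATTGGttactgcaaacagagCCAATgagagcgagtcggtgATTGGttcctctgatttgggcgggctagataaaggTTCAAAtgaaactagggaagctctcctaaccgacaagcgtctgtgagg
Mki67: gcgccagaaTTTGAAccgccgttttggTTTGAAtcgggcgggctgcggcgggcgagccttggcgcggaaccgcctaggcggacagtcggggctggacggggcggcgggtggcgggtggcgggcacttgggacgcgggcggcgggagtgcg
Mcm7: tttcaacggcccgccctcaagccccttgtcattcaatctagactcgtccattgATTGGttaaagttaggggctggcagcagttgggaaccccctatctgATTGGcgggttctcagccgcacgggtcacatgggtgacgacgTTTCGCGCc
Cenpf: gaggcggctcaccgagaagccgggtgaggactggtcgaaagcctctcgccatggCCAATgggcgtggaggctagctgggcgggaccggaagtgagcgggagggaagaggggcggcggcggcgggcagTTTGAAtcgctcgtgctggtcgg
Birc5: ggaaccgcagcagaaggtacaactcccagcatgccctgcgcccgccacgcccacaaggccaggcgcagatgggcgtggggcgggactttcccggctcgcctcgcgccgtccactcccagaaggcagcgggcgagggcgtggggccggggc
E2f1: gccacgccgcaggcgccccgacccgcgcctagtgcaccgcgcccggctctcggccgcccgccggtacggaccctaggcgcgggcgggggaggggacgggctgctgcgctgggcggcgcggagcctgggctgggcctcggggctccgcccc

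The proliferation markers gave the clearest view of the spread. Mki67, which encodes the Ki-67 antigen of cycling cells, was at 66.2, 80.2 and 27.0 CPM in Con and 63.7, 50.8 and 187 CPM in BLM. It was at 64.0, 108.5 and 52.9 CPM in KO and 88.3, 6.84 and 55.4 CPM in KOBLM. All groups overlapped, and only BLM 3 and KOBLM 2 lay outside the range of the other 10 libraries. Top2a was at 147, 177 and 94.8 CPM in Con, 66.1, 93.5 and 1800.0 CPM in BLM, 112, 47.7 and 175 CPM in KO and 102, 0 and 26.8 CPM in KOBLM. Top2a alone accounted for much of the BLM 3 sum, which was 6074 CPM without it.

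Among the replication genes, Mcm7, a subunit of the MCM helicase, was the most abundant. It was at 123, 179 and 146 CPM in Con, 78.1, 97.6 and 413 CPM in BLM, 168, 81.0 and 157 CPM in KO and 92.7, 61.0 and 49.8 CPM in KOBLM. BLM 1 and BLM 2 lay below all Con libraries and BLM 3 above all. Mcm3, another helicase subunit, was at 60.7, 81.4 and 110.4 CPM in Con, 44.97, 68.3 and 219.9 CPM in BLM, 83.1, 55.3 and 58.2 CPM in KO and 29.6, 13.6 and 35.7 CPM in KOBLM. The 3 KOBLM libraries were the lowest of the 12 for Mcm3. Pcna, the sliding clamp of the DNA polymerases, was at 72.8, 67.4 and 51.2 CPM in Con, 47.4, 65.4 and 61.1 CPM in BLM, 89.5, 77.3 and 158 CPM in KO and 60.2, 33.3 and 57.8 CPM in KOBLM. Pcna was not high in BLM 3, and KO lay above both Con and KOBLM without overlap.

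Of the nucleotide synthesis genes, Tk1 (thymidine kinase) was at 62.9, 73.3 and 13.7 CPM in Con, 29.7, 54.7 and 143 CPM in BLM, 54.2, 5.91 and 111 CPM in KO and 14.99, 7.42 and 8.09 CPM in KOBLM. KOBLM lay below BLM without overlap, while KO 2 was lower than all KOBLM libraries. E2f1, the transcription factor that activates S-phase genes, was at 62.2, 60.5 and 121 CPM in Con, 23.1, 70.2 and 0 CPM in BLM, 60.3, 49.7 and 66.4 CPM in KO and 17.7, 82.1 and 30.0 CPM in KOBLM. The groups overlapped for E2f1, and its 0 in BLM 3 is a value that 50.9% of tested genes shared there.

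Ccna2 (cyclin A2, of S phase and G2) was at 82.1, 64.2 and 84.2 CPM in Con, 36.4, 41.9 and 343 CPM in BLM, 53.2, 53.0 and 3.52 CPM in KO and 45.5, 79.0 and 31.9 CPM in KOBLM. Its KO libraries lay below the Con libraries. Cdk1, the kinase that starts mitosis, was at 25.3, 46.0 and 64.3 CPM in Con, 20.1, 74.4 and 158 CPM in BLM, 34.9, 20.1 and 80.4 CPM in KO and 12.2, 0 and 13.5 CPM in KOBLM. KOBLM was lower than every other library for Cdk1. Birc5 (survivin, of the chromosomal passenger complex) was at 53.2, 53.5 and 82.5 CPM in Con, 19.0, 41.3 and 413 CPM in BLM, 35.0, 70.0 and 149 CPM in KO and 6.69, 75.9 and 17.3 CPM in KOBLM. KOBLM 2 held Birc5 and Ccna2 at levels like those of Con while Top2a and Cdk1 had 0 of its 10381596 counts, which allows up to 0.289 CPM.

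Cdc20, an activator of the anaphase-promoting complex, was at 8.29, 13.5 and 16.8 CPM in Con, 18.7, 16.2 and 438 CPM in BLM, 12.6, 15.2 and 47.5 CPM in KO and 10.2, 0 and 9.75 CPM in KOBLM. The kinetochore protein gene Cenpf was at 21.8, 52.4 and 10.4 CPM in Con, 26.1, 41.6 and 665 CPM in BLM, 42.6, 29.3 and 60.6 CPM in KO and 19.8, 32.6 and 26.9 CPM in KOBLM. The kinetochore motor gene Cenpe was at 35.2, 14.01 and 24.98 CPM in Con, 25.1, 13.2 and 415 CPM in BLM, 37.2, 11.1 and 42.5 CPM in KO and 14.2, 0 and 17.4 CPM in KOBLM. For all 3 genes BLM 1 and BLM 2 were close to the Con libraries and BLM 3 was far above them.

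Nusap1, a spindle-bundling protein gene, was at 40.9, 42.5 and 21.3 CPM in Con, 27.0, 19.5 and 236 CPM in BLM, 77.6, 32.5 and 0 CPM in KO and 30.2, 0.0963 and 21.1 CPM in KOBLM, where the middle value is 1 count. Kif23 (the kinesin MKLP1, which acts in cytokinesis) had a different pattern. It was at 76.6, 56.1 and 104 CPM in Con, 17.99, 13.5 and 2.06 CPM in BLM, 53.3, 48.9 and 51.3 CPM in KO and 37.1, 54.7 and 12.5 CPM in KOBLM. All BLM libraries lay below all Con and KO libraries, and BLM 3 was the lowest of the 12.

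**Figure D3:**
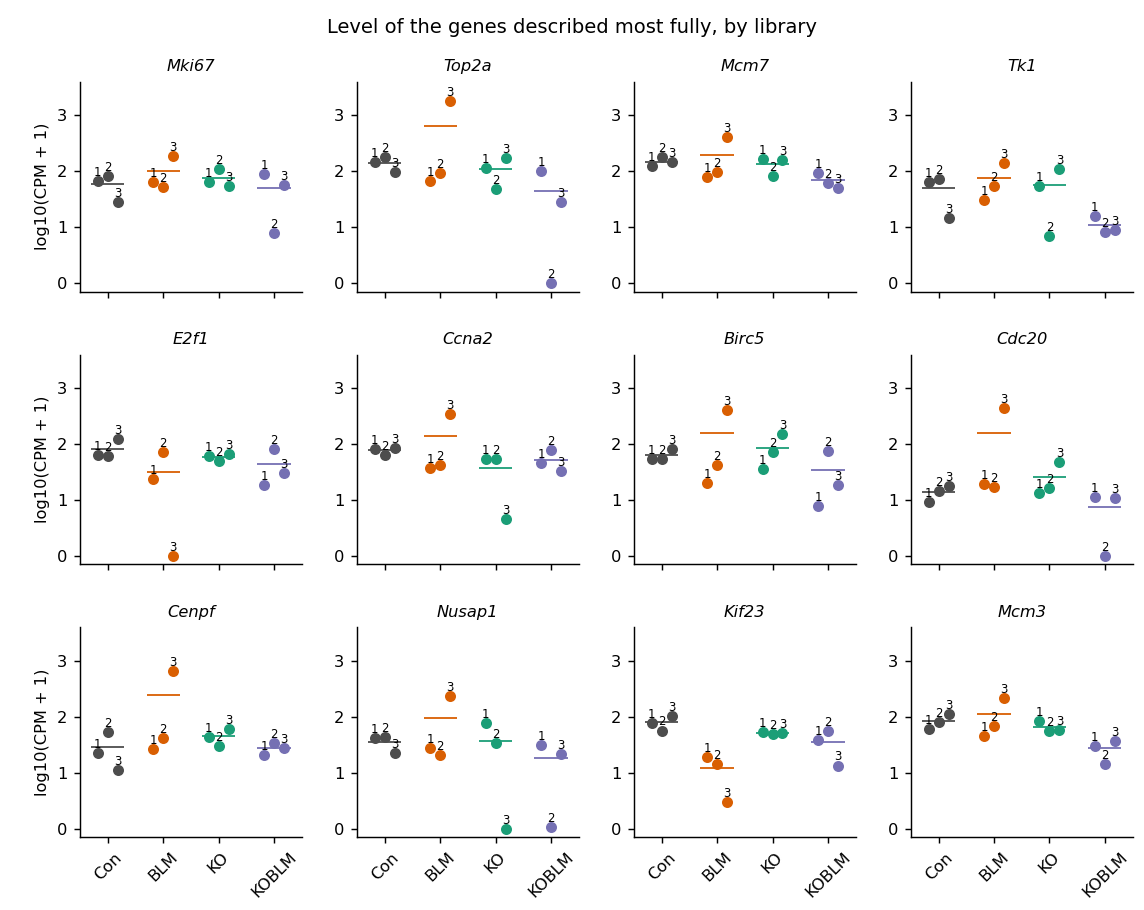
Level of 12 genes in each library as log10(CPM + 1), with the replicate number beside each point and a line at the log10 of the mean CPM plus 1 of the 3 libraries of a group. BLM 3 is the top point for 10 of the genes and the lowest for E2f1 and Kif23, and KOBLM 2 is at 0 for Top2a and Cdc20.

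Bleomycin was first compared with PBS in mice with intact p300 (BLM against Con). BLM libraries also held more fibroblast marker RNA (8 genes) than all others, at 1134 to 1847 CPM against 43.0 to 658 CPM, and less macrophage marker RNA than Con, and the part of these in the values was not tested. With all libraries, Cenpf rose by a log2 fold change of 2.87 (SE 1.05, edgeR p = 0.0161, adjusted p = 0.995, exact permutation p = 0.4) and Kif23 fell by 2.70 (SE 0.99, edgeR p = 0.0166, adjusted p = 0.995, exact permutation p = 0.1). Calls follow the study's threshold, more than 1.5-fold with p below 0.05 before adjustment, here in edgeR's quasi-likelihood test of 13054 genes. By this rule 2 of the 42 genes were called, beside 4.27% of all tested genes, 2.19% higher and 2.08% lower. None of the 42 had an adjusted p under 0.05, and the smallest p that the two-sided exact permutation test of 3 against 3 libraries can give is 0.1.

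Without BLM 3 the log2 fold change of Cenpf was 0.39 (SE 0.87) and no longer passed, and its call was also lost without Con 1 or Con 3, at 2.68 and 2.45. That of Kif23 was -2.18 (SE 0.76, edgeR adjusted p = 0.628), with the groups again not overlapping. Kif23 passed with each of the 6 libraries left out in turn. Without BLM 3 and also BLM 1 or BLM 2 it was at -2.34 and -2.04 and did not pass, with the lone BLM library assumed to vary like the other groups. Of the 42 genes, Kif23 alone was called without BLM 3, beside 5.45% of tested genes called in either direction.

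The direction of many fold changes turned on BLM 3. With it, 32 of 42 log2 fold changes were above 0, with a median of 0.78 beside -0.081 for all tested genes. Without it, 16 were above 0, with a median of -0.20 beside 0.050 for all tested genes. Top2a went from 1.99 (SE 1.46) to -0.66 (SE 1.30), Birc5 from 1.13 (SE 1.04) to -0.89 (SE 0.91), Ccna2 from 0.70 (SE 0.98) to -0.82 (SE 0.91) and Nusap1 from 1.24 (SE 1.74) to -0.46 (SE 1.83). Mcm7 went from 0.26 (SE 0.62) to -0.62 (SE 0.47) and Tk1 from 0.49 (SE 1.02) to -0.10 (SE 1.02). Cdc20 was at 3.39 (SE 1.59) with BLM 3 and at 0.58 (SE 1.69) without it. Mki67 was at 0.69 (SE 0.89) and 0.11 (SE 0.85), and E2f1 at -1.20 (SE 1.38) and -0.61 (SE 0.74). None of these passed the test in either fit.

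**Figure D4:**
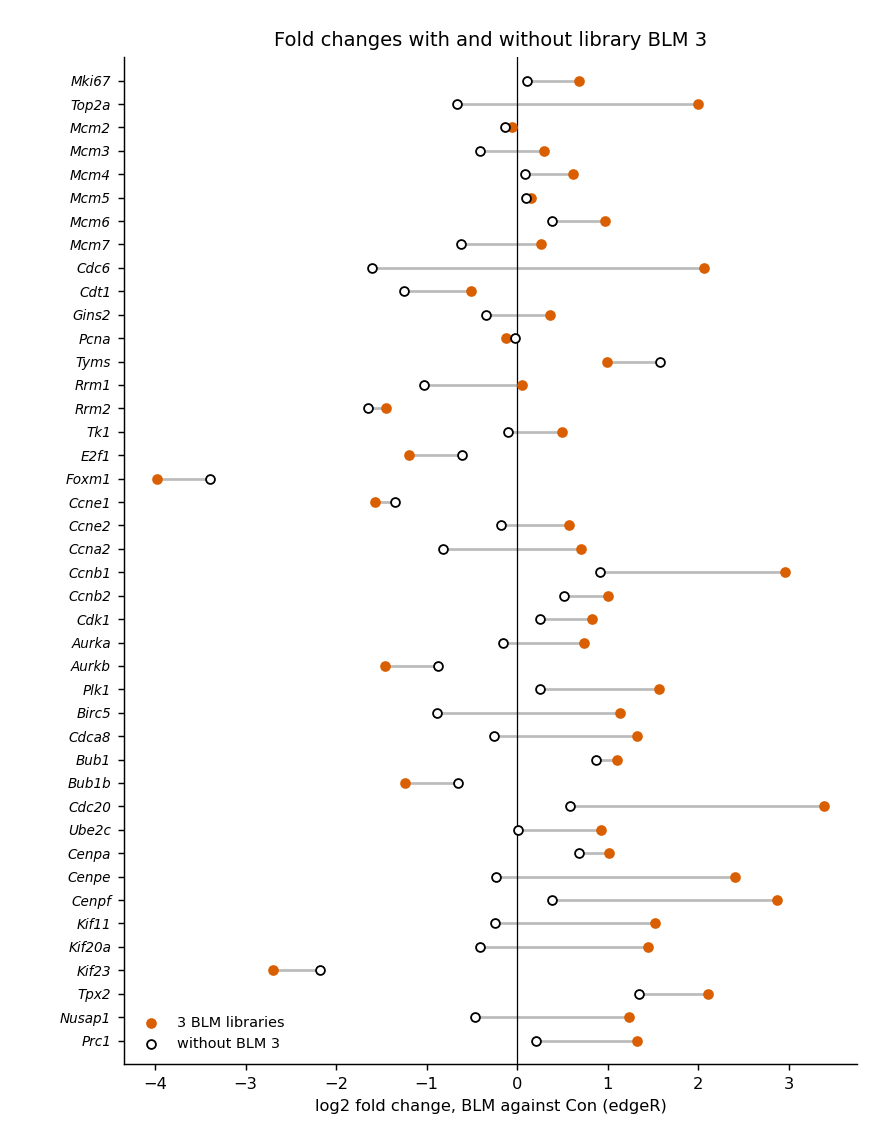
Log2 fold change of each of the 42 genes between BLM and Con from edgeR, with all 3 BLM libraries (filled) and without BLM 3 (open). Filled points lie mostly right of 0 with a median of 0.78, open points lie on both sides with a median of -0.20, and Kif23 is left of -2 in both.

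Without BLM 3, 8 genes (Top2a, Mcm7, Gins2, Rrm1, Rrm2, Ccna2, Birc5 and Kif23) were lower in both BLM libraries than in every Con library, beside 15.4% of all tested genes. Gins2 encodes a GINS subunit, and Rrm1 and Rrm2 encode the subunits of ribonucleotide reductase. Tyms (thymidylate synthase) was the 1 gene higher without overlap, at 16.7 and 19.7 CPM against 4.90 to 9.09 CPM in Con, beside 16.1% of tested genes. With all libraries, Kif23 alone was lower without overlap, beside 11.8% of tested genes, and no gene was higher without overlap, beside 5.32%.

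Deletion of p300 was next compared with its control in mice given PBS (KO against Con). Endothelial markers (8 genes) summed to 64.1 to 454 CPM in KO against 503 to 950 CPM in Con. Of 14 tested ATII markers, 12 had log2 fold changes below 0, with a median of -1.33. The part of these cells in the values below was not tested. None of the 42 genes was called by edgeR, none had an unadjusted p under 0.05, and DESeq2 called 0. Of all tested genes, edgeR called 1.44% and DESeq2 called 374 of 13054. The median log2 fold change was 0.055, beside -0.093 for all tested genes, and 22 of 42 values were above 0. The values reached 1.38 (SE 1.44) for the mitotic kinesin gene Kif11. The origin licensing gene Cdc6 was at 12.8, 3.85 and 0 CPM in Con and at 0, 0.412 and 0 CPM in KO, where no library was above the floor. Without KO 1 the kinase gene Aurkb was called, beside 446 of 13953 tested genes. Aurkb was the 1 gene called when a Con or KO library was left out. Mcm2, Mcm5, Rrm2, Ccna2, the kinase gene Plk1 and Kif23 were lower in all KO than in all Con libraries, beside 7.56% of tested genes, and Pcna was higher, beside 2.18%. For Ccna2 the log2 fold change was -0.86 (SE 0.99) and for Pcna 0.83 (SE 0.63).

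Bleomycin was then compared with PBS in mice with the deletion (KOBLM against KO). Of the 42 log2 fold changes, 33 were below 0, with a median of -1.004 beside 0.080 for all tested genes. Tk1 fell by 2.36 on the log2 scale (SE 1.07, edgeR p = 0.0440, adjusted p = 1.0, exact permutation p = 0.4). It was the 1 gene called, beside 0.529% of tested genes called lower, and its call was lost when KO 1, KO 3 or any of the KOBLM libraries was left out, with values from -2.92 to -1.59 over the libraries left out in turn.

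BLM 3 is in neither group of this comparison, but leaving it out changed the shared spread, the scaling and the number of tested genes, from 13054 to 14084. Without it, 4 genes were called lower, beside 1.05% of tested genes. Mcm3 fell by 1.30 (SE 0.57, edgeR p = 0.0383, exact permutation p = 0.1) and Mcm7 fell by 0.97 (SE 0.42, edgeR p = 0.0349, exact permutation p = 0.2). Pcna fell by 1.05 (SE 0.49, edgeR p = 0.0483, exact permutation p = 0.1) and Tk1 fell by 2.36 (SE 0.96, edgeR p = 0.0267, exact permutation p = 0.4). After adjustment each stood at an adjusted p of 0.903. Of the genes outside the 42, the same fit called 1 of 40 other replication genes and 6 of 62 other mitosis genes lower. The number called was 1 to 5 with each further library left out in turn. It was 1 without KO 3, beside 279 of 13994 tested genes called in either direction. It was 2 without Con 2, KO 1 or KOBLM 2, beside 321 of 13751, 790 of 13782 and 475 of 13978.

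The roles differed in their counts. All 4 nucleotide synthesis genes, all 4 checkpoint genes, all 3 centromere genes, both proliferation markers and both transcription factors had log2 fold changes below 0. So did 8 of 10 licensing and fork genes, 5 of 6 spindle genes and 3 of 5 mitotic kinase genes. Among the cyclins and Cdk1, 4 of 6 were above 0, namely Ccne1, Ccne2, Ccna2 and Ccnb2, with values from 0.20 to 0.97 that did not pass the test. The difference between roles was not tested.

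In KOBLM, 9 genes (Mcm3, Pcna, Rrm2, Foxm1, Cdk1, Bub1b, Cdc20, Ube2c and Kif20a) were lower in all libraries than in all KO libraries, beside 2.87% of tested genes, and none was higher, beside 3.95%. Ube2c encodes the ubiquitin-conjugating enzyme of the anaphase-promoting complex and Kif20a a cytokinesis kinesin. Without KOBLM 2, the library with 19 genes at 0 and the most erythroid RNA, 14 genes were lower without overlap, beside 5.38% of tested genes, and the median log2 fold change was -0.75. Neutrophil markers (7 genes) summed to 1376 to 2153 CPM in KOBLM against 379 to 808 CPM in KO. The part of erythroid or neutrophil RNA in these values was not tested.

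p300 deletion was compared under bleomycin (KOBLM against BLM), which shares the KOBLM libraries with the comparison above and the BLM libraries with the first. Erythroid markers (7 genes) summed to 572 to 9522 CPM in KOBLM against 11.6 to 98.6 CPM in BLM, with 4 of 5 tested called higher, and T and NK cell markers (8 genes) to 21.7 to 55.4 CPM against 0 to 15.4 CPM. Fibroblast markers were lower, at 160.0 to 658 CPM against 1134 to 1847 CPM. The part of these cells in the values below was not tested. With all libraries, 7 genes were called lower and none higher, beside 1.78% of tested genes called lower and 1.39% called higher. Cdc20 fell by 4.19 (SE 1.65, edgeR p = 0.0233, exact permutation p = 0.1) and Top2a fell by 3.57 (SE 1.56, edgeR p = 0.0377, exact permutation p = 0.3). Cenpe fell by 3.47 (SE 1.60, edgeR p = 0.0472, exact permutation p = 0.3), Cdk1 fell by 3.07 (SE 1.43, edgeR p = 0.0491, exact permutation p = 0.1) and Cenpf fell by 2.89 (SE 1.05, edgeR p = 0.0155, exact permutation p = 0.3). These genes act in mitosis. Of the DNA synthesis genes, Tk1 fell by 2.70 (SE 1.08, edgeR p = 0.0259, exact permutation p = 0.1) and Mcm3 fell by 1.84 (SE 0.74, edgeR p = 0.0258, exact permutation p = 0.1). After adjustment all 7 stood at an adjusted p of 1.0.

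Without BLM 3 edgeR called 0 genes, none had an unadjusted p under 0.05, and DESeq2 called 1. Of all tested genes, edgeR called 1.58% lower and 1.76% higher, and DESeq2 called 247 lower and 442 higher of 14084. Cenpf was then at -0.41 (SE 0.87), Cenpe at -0.84 (SE 1.55), Top2a at -0.92 (SE 1.26) and Cdc20 at -1.39 (SE 1.69). Mcm3 was at -1.13 (SE 0.62), Tk1 at -2.10 (SE 1.01) and Cdk1 at -2.49 (SE 1.37). The number called also went to 4 without KOBLM 3, beside 373 of 13962 tested genes. It went to 10 without BLM 1, beside 421 of 13804.

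The fold changes lay below 0 for most genes with and without BLM 3. With all libraries 38 of 42 log2 fold changes were below 0, with a median of -1.85 beside 0.095 for all tested genes. Without BLM 3, 37 were below 0, with a median of -0.91 beside -0.064. There were 11 genes lower in all KOBLM libraries than in BLM 1 and BLM 2 (Mcm3, Gins2, Tyms, Rrm2, Tk1, Ccnb2, Cdk1, Bub1, Cdc20, Ube2c and Cenpa), beside 15.4% of tested genes. With all libraries there were 10, beside 4.98%, and none was higher, beside 6.04%. Without BLM 3 and KOBLM 2 there were 13, beside 22.0% of tested genes. For the other genes given in full, the log2 fold change with and without BLM 3 was -0.77 (SE 0.89) and -0.19 (SE 0.85) for Mki67, -1.30 (SE 0.63) and -0.42 (SE 0.46) for Mcm7, and 0.38 (SE 1.36) and -0.21 (SE 0.72) for E2f1. It was -1.17 (SE 0.99) and 0.35 (SE 0.90) for Ccna2, -1.99 (SE 1.06) and 0.036 (SE 0.88) for Birc5, and -2.13 (SE 1.79) and -0.43 (SE 1.79) for Nusap1.

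**Figure D5:**
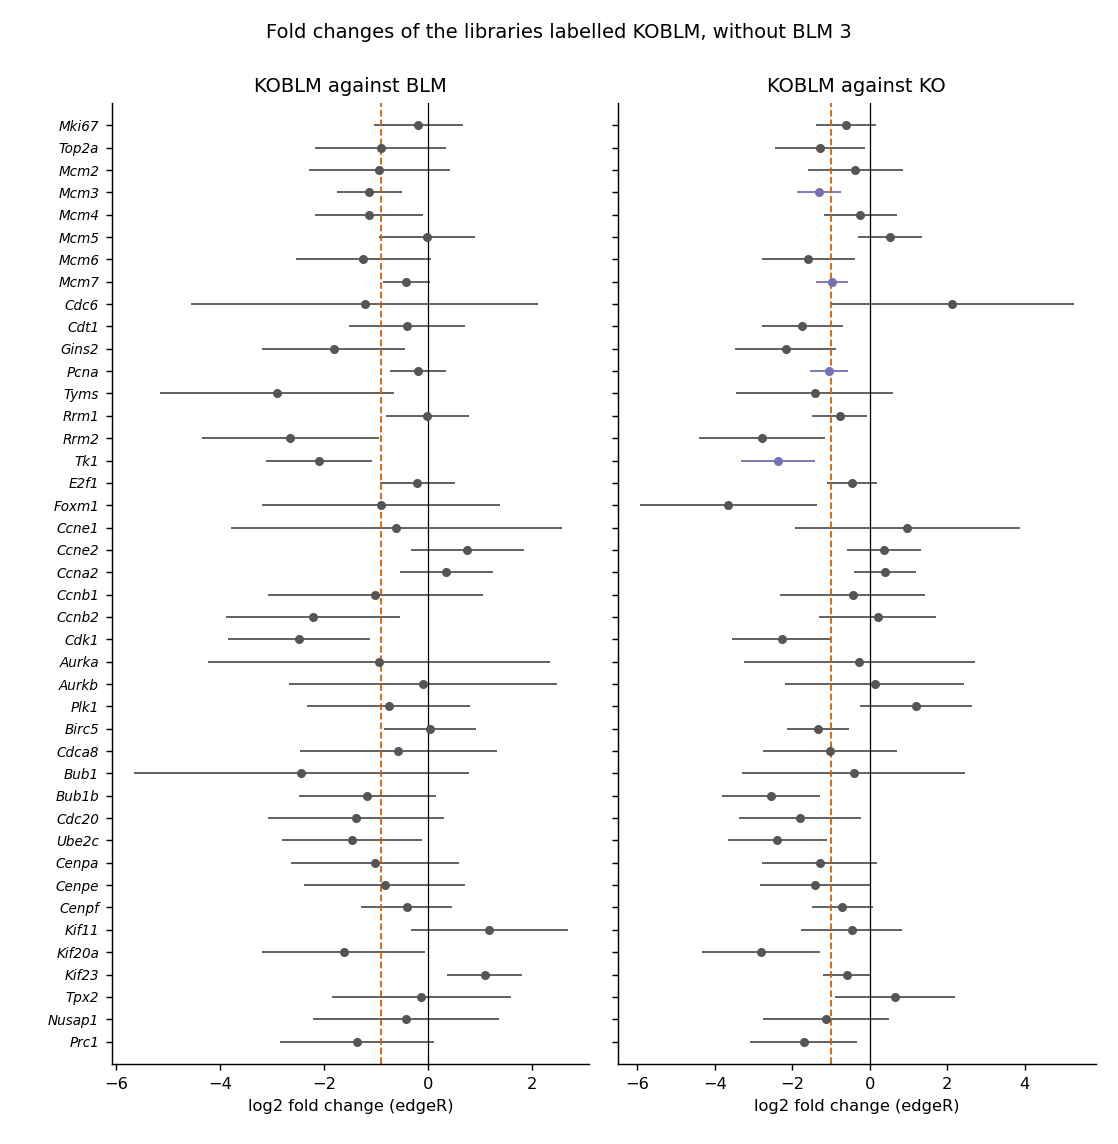
Log2 fold change with its standard error for each of the 42 genes, KOBLM against BLM (left) and KOBLM against KO (right), from the edgeR fit without BLM 3, with a dashed line at the median of the genes. Medians are -0.91 and -1.004, and the 4 purple points (Mcm3, Mcm7, Pcna and Tk1) are the genes that passed the threshold.

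The difference between the bleomycin effects of the genotypes was tested as an interaction. It was negative for 35 of 42 genes, with a median of -1.39 beside 0.23 for all tested genes, and for 32 genes without BLM 3, with a median of -0.68 beside 0.058. Cdc20 was at -5.19 (SE 2.17, edgeR adjusted p = 1.0) and Cenpf at -3.57 (SE 1.43, edgeR adjusted p = 1.0), the 2 genes called beside 2.82% of tested genes, 1.31% lower. Without BLM 3 edgeR called 0, none had an unadjusted p under 0.05 and DESeq2 called 0. Of all tested genes, edgeR called 4.63% and DESeq2 called 788 of 14084. The values were then -2.38 (SE 2.29) and -1.10 (SE 1.18). The calls were also lost without Con 1, and those of single genes without Con 2 or KO 3 (Cdc20) and without Con 3 or KOBLM 1 (Cenpf).

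Both bleomycin groups were also compared with both PBS groups, a comparison added after the data were seen. Kif23 fell by 1.65 (SE 0.68, edgeR adjusted p = 1.0), the 1 gene called beside 4.47% of tested genes. Without BLM 3 it fell by 1.39 (SE 0.49, edgeR adjusted p = 0.597) and Mcm7 fell by 0.80 (SE 0.32, edgeR adjusted p = 0.597), beside 7.16% of tested genes. In that fit 33 of 42 log2 fold changes were below 0, with a median of -0.57 beside 0.10 for all tested genes. With all libraries 23 were below 0, with a median of -0.17 beside 0.0305. The call of Kif23 was lost without Con 1, Con 3, KO 1, KOBLM 1 or KOBLM 3, at -1.69 to -1.45.

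Other genes of the cell cycle were followed from lists that share no gene with the 42. The other replication genes (40 genes) summed to 548 to 745 CPM in Con and 527 to 681 CPM in KOBLM, with 3238 CPM in BLM 3. In BLM against Con 1 of 40 was called higher and 0 lower, beside 2.19% and 2.08% of tested genes. It was Rpa2, a subunit of the single-strand DNA binding protein RPA, which rose by 2.26 (SE 1.05, edgeR adjusted p = 0.995) and was at 0.70 (SE 0.98) without BLM 3. In KOBLM against KO, 1 was called lower and 0 higher, beside 0.529% of tested genes called lower. That was Clspn (claspin, of the replication checkpoint), at 11.1, 5.36 and 65.2 CPM in KO and 0.268, 0 and 0.333 CPM in KOBLM, of which none is above the floor.

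The other mitosis genes (64 genes, 62 tested) summed to 988, 1290 and 6355 CPM in BLM against 1515 to 1566 CPM in Con, so that they too were lowest in BLM 1 and highest in BLM 3 of these 6 libraries. In BLM against Con 2 rose and 1 fell, beside 2.19% and 2.08% of tested genes. Mybl2 (B-Myb, a factor of late cell cycle transcription) was at 0, 2.89 and 0.0942 CPM in Con and at 6.57, 6.60 and 278 CPM in BLM, and its rise did not pass without BLM 3 (log2 fold change 2.79, SE 3.27). Smc2, a condensin subunit gene, rose by 1.72 (SE 0.74, edgeR adjusted p = 0.995) and was at 0.40 (SE 0.55) without BLM 3. Hjurp, the gene of the chaperone that deposits CENP-A, fell by 2.33 (SE 0.85, edgeR adjusted p = 0.995), and fell by 2.12 (SE 0.86, edgeR adjusted p = 0.811) without BLM 3. It was at 111, 139 and 116 CPM in Con and at 33.0, 18.6 and 20.4 CPM in BLM, which did not overlap. Hjurp was also higher in KOBLM than in BLM, by 2.40 (SE 0.86, edgeR adjusted p = 1.0).

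In KOBLM against KO, 8 of the 62 other mitosis genes fell and 0 rose, beside 0.529% of tested genes called lower. Without BLM 3, 6 fell, beside 1.05% of tested genes. The 4 with the highest mean level over the 12 libraries were Mybl2, Espl1, Ect2 and Kif18b. Espl1 (separase, which cleaves cohesin) was at 6.59, 7.14 and 62.5 CPM in KO and at 0, 0 and 0.222 CPM in KOBLM. Kif18b, a mitotic kinesin gene, was at 1.42, 10.4 and 4.07 CPM in KO and at 0 in all KOBLM libraries. Ect2, a cytokinesis gene, was at 9.83 CPM in KO 1 and at 0 in KO 2, KO 3 and KOBLM, and Mybl2 was at 1.93, 0 and 3.24 CPM in KO and at 0 in KOBLM. Ect2 and Mybl2 overlap at 0 and did not pass without BLM 3.

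The G1 regulators and inhibitors (36 genes) had another pattern. They summed to 2323 to 3178 CPM in Con, 3871, 3387 and 2010 CPM in BLM, 2087 to 2697 CPM in KO and 2657 to 4581 CPM in KOBLM, and BLM 3 was the lowest of all libraries. Cdkn1a, which encodes p21, an inhibitor of cyclin-dependent kinases induced by p53 after DNA damage, was at 468, 462.5 and 229 CPM in Con and 1293, 825 and 411 CPM in BLM. It was at 386, 208 and 250 CPM in KO and 787, 1141 and 579.5 CPM in KOBLM. KOBLM lay above KO without overlap, while BLM 3 lay within the range of Con.

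Cdkn1a rose by 1.19 between Con and BLM (SE 0.54, edgeR adjusted p = 0.995) and by 1.57 without BLM 3 (SE 0.42, edgeR adjusted p = 0.378). Between KO and KOBLM it rose by 1.55 (SE 0.55, edgeR adjusted p = 1.0), and over both genotypes without BLM 3 by 1.56 (SE 0.29, edgeR adjusted p = 0.0834). Cdkn1b, which encodes the inhibitor p27, rose by 1.81 between KO and KOBLM (SE 0.77, edgeR adjusted p = 1.0), where KOBLM 2 held 593 CPM and KOBLM 1 and KOBLM 3 held 87.5 and 102 CPM. No G1 regulator was called lower in these comparisons with all libraries. Without BLM 3, Tob1, an antiproliferative gene, fell by 1.71 between Con and BLM (SE 0.77, edgeR adjusted p = 0.884), by 1.48 between KO and KOBLM (SE 0.66, edgeR adjusted p = 0.903) and by 1.59 over both genotypes (SE 0.51, edgeR adjusted p = 0.557). In that fit Cdkn2d, another gene of this list, rose by 1.67 between Con and BLM (SE 0.76, edgeR adjusted p = 0.884). Over both genotypes Cdkn2d rose by 1.23 (SE 0.51, edgeR adjusted p = 0.600) and Cdkn1b by 1.09 (SE 0.44, edgeR adjusted p = 0.597). Tob1 and Cdkn2d had 0 counts in BLM 3. In KO against Con edgeR called 0 of the 36.

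The values of several genes carry a limit from where their reads fall. In the last 500 bases of the gene, 7 of the 42 genes overlap an exon of a neighbour on the opposite strand (Mcm7 with Cops6, Gins2 with Gse1, Ccne2 with Ints8, Ccna2 with Exosc9, Cdc20 with Elovl1, Kif20a with Cdc23 and Prc1 with Rccd1). The sources used here do not state whether reads were counted by strand, so reads of such pairs may have been counted together. Shared sequence was searched in another window, the last 500 bases of the longest protein-coding transcript of each gene. There a stretch of 50 bases was shared with another annotated gene for 9 genes (Mki67, Mcm5, Mcm6, Mcm7, Plk1, Cdc20, Cenpf, Kif11 and Tpx2). Kif23, Top2a, Mcm3, Tk1, Cdk1, Cenpe and Pcna are in neither set.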

How the data were processed

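RNA of sorted ATII cells from 12 mice was sequenced with a 3′ kit (QuantSeq), and the submitters' processing notes name mm10, Bowtie2 and edgeR, with versions and the strand of counting not given in the sources used here. The authors deposited raw counts per gene symbol for each library. Entries of 35 symbols listed more than once were summed. Levels are CPM, counts scaled to the library total. Counts were fitted with edgeR 4.0.16 (quasi-likelihood test, TMM factors 0.84 to 1.26, filterByExpr with a minimum count of 10 and total of 15), in 1 model of the 4 groups with 8 residual degrees of freedom. The test steps were tested on simulated data of lower dispersion than these libraries, which does not show how well they find changes here. All fits were repeated without BLM 3, a choice made after seeing the data, over 14084 genes. DESeq2 1.42.0, a replicate block, other scalings and filters and leaving out each library were alternatives. The genes and lists were chosen with earlier results of these data known. Genes were named if they were called in a comparison, had the highest mean level of their role or were Mki67 or Top2a, and at most 4 called genes of each other list were named, those with the highest mean level. Tyms, Cdc6, Kif11 and Aurkb were named after their values were seen. Replicate numbers were not taken to pair the mice. The correlations of 18 same-numbered pairs ran from -0.117 to 0.096, which with 3 mice a group cannot settle whether a number marks a batch. Replicate 3 had the fewest detected genes in Con, BLM and KO (10246, 6847 and 8790), and replicate 2 did in KOBLM (9018).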

Additional observations from a re-analysis of the deposited data

Results flagged for a closer look

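The interaction test of edgeR, of the difference between the bleomycin effects of the genotypes, called Cdc20 (-5.19 on the log2 scale) and Cenpf (-3.57). These calls are at an unadjusted p under 0.05, beside 2.82% of tested genes called. The smallest adjusted p of the 42 genes in this edgeR test was 0.9999. Both values rest on BLM 3, which held Cdc20 at 438 CPM and Cenpf at 665 CPM. Without it they were -2.38 and -1.10 and did not pass.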

How the results depend on the processing

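With all libraries, an adjusted p under 0.05 left 0 of the 42 genes in each comparison, where the unadjusted rule called 2 (BLM against Con), 7 (KOBLM against BLM), 1 (KOBLM against KO), 2 (interaction) and 1 (bleomycin over both genotypes). DESeq2 called 14 in KOBLM against BLM, 4 in KOBLM against KO and 5 in the interaction, beside 755, 460 and 625 of 13054 tested genes. The main edgeR fit called 413, 221 and 368 of the same 13054 genes. A model of only the groups compared called 2 in KOBLM against BLM, beside 149 of 11473 tested genes. In KOBLM against KO it called 0, beside 138 of 11033. Without a filter on low counts, 0 were called in KOBLM against KO and 5 in the interaction, beside 257 and 706 of 17480. The replicate block used numbers not known to pair the mice. It called 1 in BLM against Con, 3 in KOBLM against BLM and 0 in the interaction, beside 394, 262 and 242 of 13054. Without BLM 3, edgeR called 1 in BLM against Con, 0 in KOBLM against BLM, 4 in KOBLM against KO and 2 over both genotypes. DESeq2 then called 1 in KOBLM against BLM, 9 in KOBLM against KO and 6 over both genotypes. Beside these, it called 689, 784 and 1147 of 14084 tested genes, where edgeR called 471, 433 and 1009. The replicate block then called 1 in KOBLM against BLM and 2 in KOBLM against KO, beside 410 and 329 of 14084. An adjusted p under 0.05 left 0. The mean summed level in Con was 1647 CPM on TMM-scaled totals and 1813 CPM without the ribosomal Rn45s counts, against 1705 CPM.

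With each library left out in turn, the number called ran from 1 to 3 in BLM against Con, 0 to 10 in KOBLM against BLM, 0 to 1 in KO against Con, 0 to 4 in KOBLM against KO, 0 to 3 in the interaction and 0 to 2 over both genotypes. Without BLM 3 as well, it ran from 0 to 1, from 1 to 5 in KOBLM against KO and from 0 to 5 over both genotypes. Of 13751 to 13994 tested genes, the fits that kept BLM 1 and BLM 2 called 483 to 985, 279 to 790 and 774 to 1201 in the same order. In BLM against Con with single libraries left out, the log2 fold change ran from -0.66 to 2.51 for Top2a, -0.62 to 0.60 for Mcm7 and -0.10 to 0.92 for Tk1. It ran from -0.82 to 1.12 for Ccna2, -0.89 to 1.64 for Birc5 and -0.46 to 1.67 for Nusap1. Each was below 0 without BLM 3. In KOBLM against BLM it ran from -0.40 to 1.90 for E2f1, -1.59 to 0.35 for Ccna2 and -3.35 to 0.036 for Birc5. The cause of these changes was not tested. With 3 mice a group and a common dispersion of 2.08, small differences could not be seen and large ones could also go uncalled. The median SE of the 42 log2 fold changes was 1.43 in KO against Con and 1.45 in BLM against Con. In BLM against Con, Cdc20 at 3.39 (SE 1.59) did not pass.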
